A study of Oryza sativa with 12 samples.

Results

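The mutant ossh1 was compared with its wild type WT by RNA sequencing of the rice abscission zone, the layer of cells at the base of the spikelet where the grain later separates from the plant. The comparison took all 6 libraries of the table that holds these groups, out of 12 libraries in the series, and all 55986 gene IDs in it, of which 22669 had enough counts to be tested. Each group had 3 libraries, each from a pool of 5 plants harvested at 0 DAH, the day of flowering, from plants grown in the field in Beijing or Sanya. The labels do not tie a library to either place, give no time of day and do not say what kind of mutation ossh1 carries or whether WT is its direct parent. WT is labelled wild type and ossh1 a mutant of OsSh1, no other allele or agent is named for either, and both were treated alike, per the labels. The series title places OsSh1 with OsCCT22 and OsCAD2 in a module that acts on shattering through lignin.

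An abscission zone is a few layers of small cells that stay thin-walled while the tissue around them thickens its walls. Cells of such thickened walls deposit cellulose and xylan and then lignin, a polymer of phenylpropanoid alcohols made by a chain of ligases, transferases and reductases and joined in the wall by laccases and peroxidases. OsSh1 encodes a YABBY transcription factor, a plant family known from the polarity and growth of leaves and floral organs, and is known in rice and other cereals as a gene that promotes seed shattering. Auxin, ethylene, abscisic acid and jasmonate are all known to act on abscission, auxin mostly to delay it and ethylene to advance it.

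The table names genes by locus IDs, in which the digits before the g are the chromosome. Gene names were written from published identifications and each was checked against RefSeq, where the name had to belong to a gene on the same chromosome and at the place expected from the serial number of the ID. Of 467 loci in 31 lists of known function, 310 were paired in this way and are described here. The other 157 are not analysed here. Among them are every phenylalanine ammonia-lyase, every hydroxylase of lignin synthesis, most laccases and every secondary wall transcription factor of the lists.

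The WT libraries held 30382846 to 32055561 counts and the ossh1 libraries 27044341 to 28600944. Levels are read counts scaled to library size by TMM (CPM), given as mean ± SD over the 3 libraries of a group, and a log2 fold change is ossh1 against WT, so that a negative value is lower in ossh1. Genes were tested in edgeR by quasi-likelihood, p-values were adjusted by Benjamini-Hochberg over all 22669 genes, and the threshold was 0.05. By it 29.2% of all tested genes were higher and 29.1% lower in ossh1, 58.3% in all, and the median log2 fold change over all genes was -0.01. Among the paired genes 275 were tested, of which 121 were higher and 97 lower, with a median of 0.07. Changes of at least 2-fold numbered 41 higher and 20 lower among these 275, where 7.98% of all tested genes were that much higher and 4.96% that much lower. The WT and ossh1 libraries did not overlap in 62.3% of all tested genes. With so many calls across the transcriptome, a call says little about any one list, and the sizes and the balance of directions are what is given below. Scaling by library totals alone turned the split over all genes from 6629 higher and 6591 lower to 5257 and 8364, so changes below about 0.1 on the log2 scale take their direction from the scaling.

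OsSh1 itself (LOC_Os03g44710, chromosome 3) was the check on the labels. Its levels were 74.7, 75.7 and 80.5 CPM in the WT libraries and 2.26, 1.31 and 1.15 CPM in the ossh1 libraries. The groups were far apart, and some OsSh1 reads remained in every mutant library, 59, 34 and 32 counts. The fall was 49.1-fold (log2 fold change -5.62, SE 0.10, adjusted p = 6.1e-37). The neighbours of OsSh1 by serial number were also read, a choice made after seeing the data. Of the 20 tested genes on each side, 15% changed at least 2-fold, against 12.9% of all tested genes, and their median log2 fold change was -0.03.

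OsSh1 was not the only YABBY gene that was lower. Of the 8 paired genes of the family 7 were tested, of which 4 were lower, 1 was higher and 2 did not pass. The 4 include OsSh1 itself, and 29.1% of all tested genes were lower. TOB1 (LOC_Os04g45330, OsYABBY5 in RefSeq), which is known to regulate spikelet meristems in rice, had 2.31, 2.23 and 2.30 CPM in WT and 0.841, 0.538 and 0.539 CPM in ossh1. All its mutant libraries were below all WT libraries, and the change was -1.83 on the log2 scale (SE 0.28, adjusted p = 3.87e-07). DL (LOC_Os03g11600), which is known for carpel identity and the leaf midrib, fell from 4.59 ± 0.777 to 1.48 ± 0.378 CPM (log2 fold change -1.63, SE 0.20, adjusted p = 3.54e-09). These were genes with few counts, at most 171 in a library. OsYAB1 fell less (-0.32 on the log2 scale, SE 0.08). The family member with the most counts, YAB6 (LOC_Os12g42610), was slightly higher in ossh1, rising from 329 ± 5.42 to 394 ± 1.03 CPM (log2 fold change 0.26, SE 0.03, adjusted p = 3.43e-10).

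**Figure D1:**
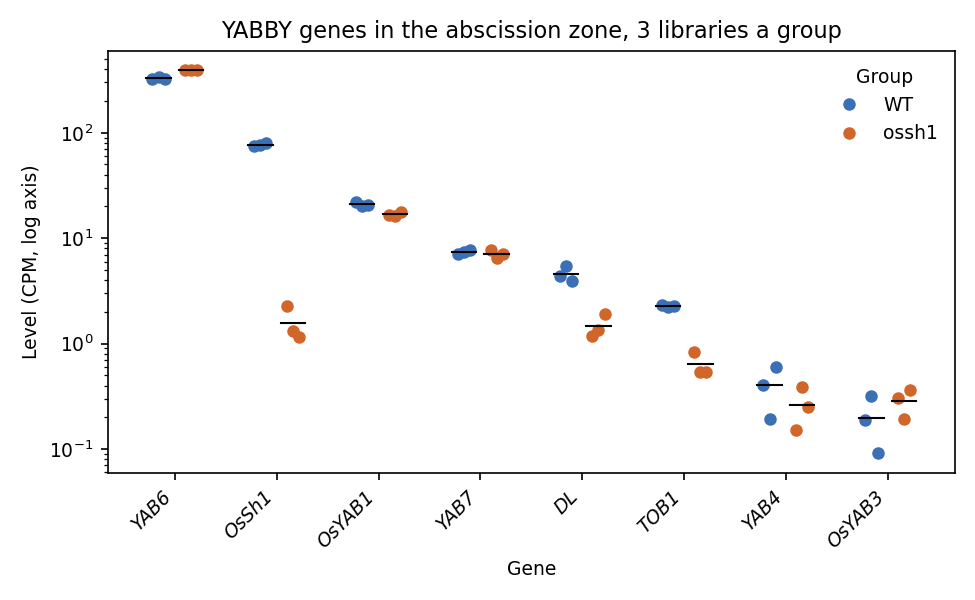
Levels of the 8 paired YABBY genes in each library (CPM, log axis), with 3 points a group, WT in blue and ossh1 in orange, and a black line at each group mean. OsSh1 falls from near 77 to near 1.6 CPM, DL and TOB1 fall from lower levels, and YAB6 is slightly higher in ossh1.

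Of the other known regulators of shattering in the list, only SHAT1, OSH15 and OsLG1 were tested, and OSH15 was the one that passed. A further 5 were not paired and are not analysed here. SHAT1 (LOC_Os04g55560), an AP2 factor needed to form the abscission zone, had 43.5 ± 0.865 CPM in WT and 45.4 ± 2.45 CPM in ossh1, and the groups overlapped (log2 fold change 0.06, SE 0.05, adjusted p = 0.344). The KNOX homeobox gene OSH15 (LOC_Os07g03770), known in rice to repress lignin genes in the abscission zone, rose from 181 ± 2.07 to 223 ± 5.12 CPM (log2 fold change 0.30, SE 0.03, adjusted p = 1.74e-10). OSH1 (LOC_Os03g51690), the KNOX gene of the shoot meristem, rose by 0.41 (SE 0.03, adjusted p = 1.23e-14) with no overlap between groups. OSH71 was at -0.09 (adjusted p = 0.0208), a call lost without WT replicate 1 or 2 or ossh1 replicate 3 (adjusted p 0.0652 to 0.0921). OSH6 did not pass (-0.03, adjusted p = 0.619), except when scaled by library totals (-0.13, adjusted p = 0.0299). OsLG1 (LOC_Os04g56170), an SPL factor of ligule and panicle architecture, averaged 1.32 ± 0.351 CPM in WT against 1.55 ± 0.299 CPM in ossh1 and did not pass (log2 fold change 0.23, SE 0.27, adjusted p = 0.477). OsGRF4 had 10, 14 and 20 counts in WT and 1, 1 and 6 in ossh1, too few to be tested.

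The tested genes of wall cellulose moved in one direction. Of 11 secondary wall genes in the list, 6 were paired and 5 tested, so the rest of that list was not read. All 5 tested secondary wall genes and all 6 primary wall cellulose synthases were lower in ossh1, with medians of -0.72 and -0.33. Of all tested genes 29.1% were lower. CESA4, CESA7 and CESA9 are the 3 subunits of the secondary wall cellulose synthase in rice, and loss of each is known to make culms brittle. CESA4 (LOC_Os01g54620) had 408, 418 and 415 CPM in WT and 206, 205 and 213 CPM in ossh1. Every WT library was nearly 2-fold above every mutant library, and the log2 fold change was -0.99 (SE 0.03, adjusted p = 3.61e-28). CESA9 (LOC_Os09g25490) fell from 216 ± 6.71 to 126 ± 0.867 CPM (log2 fold change -0.77, SE 0.04). CESA7 (LOC_Os10g32980), the list member with the most counts, fell from 527 ± 11.3 to 320 ± 11.9 CPM (-0.72, SE 0.03, adjusted p = 2.13e-23). The 3 subunits thus fell together, by 0.72 to 0.99 on the log2 scale, with no overlap between groups in any of them.

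BC1 (LOC_Os03g30250), a COBRA-like protein that helps cellulose assembly in secondary walls, fell from 88.7 ± 1.82 to 54.1 ± 1.65 CPM (log2 fold change -0.71, SE 0.05, adjusted p = 1.12e-17). The xylan synthesis gene IRX14 fell by 0.28 (SE 0.03), and IRX9 had at most 6 counts in a library and was not tested. Among the primary wall synthases the falls ran from -0.63 in CESA5 to -0.19 in CESA3. CESA1, with the most counts, fell from 441 ± 4.91 to 378 ± 3.60 CPM (-0.22, SE 0.03, adjusted p = 8.5e-09). Summed CPM of the secondary wall list ran from 1416 to 1464 in the WT libraries and from 856 to 884 in the ossh1 libraries.

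The cellulose synthase-like genes, some groups of which make mannans, xyloglucan backbones or mixed-linkage glucan, were mostly lower too. Of 18 tested, 11 were lower, 3 higher and 4 did not pass, with a median of -0.37 and a range from -1.62 to 1.31. CSLA1 (LOC_Os02g09930), of the mannan synthase group, had 14.1, 16.7 and 15.5 CPM in WT and 5.96, 5.30 and 5.54 CPM in ossh1 (log2 fold change -1.46, SE 0.11, adjusted p = 1.03e-15). All 3 mutant libraries were below every WT library, and 4 of the 5 tested CSLA genes were lower. CSLD4 (LOC_Os12g36890) fell from 2.86 ± 0.409 to 0.933 ± 0.329 CPM (-1.62, SE 0.26, adjusted p = 7.04e-07). CSLF2 (LOC_Os07g36690), a mixed-linkage glucan synthase, fell by 1.06 (SE 0.11), while CSLF6, known as the main gene of that glucan in rice, rose by 0.29 (SE 0.07, adjusted p = 0.000426). CSLH1, with the most counts, fell by 0.77 (SE 0.05, adjusted p = 1.54e-17). CSLE1 rose by 0.996 (SE 0.09).

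The lignin genes did not move as one. Of 21 tested genes of the monolignol pathway and laccases, 8 were lower, 4 higher and 9 did not pass, with a median of -0.16. These do not cover every step. The hydroxylases were not paired, and the paired cinnamoyl-CoA reductase gene had at most 4 counts in a library and was not tested. OsCAD2 (LOC_Os02g09490), the cinnamyl alcohol dehydrogenase of the series title, catalyses the last reduction to monolignols, and its loss is known as the gold hull and internode phenotype. Its levels were 77.7, 76.5 and 80.6 CPM in WT and 99.8, 93.1 and 91.9 CPM in ossh1. The mutant libraries were all above the WT libraries, by 1.21-fold (log2 fold change 0.28, SE 0.04, adjusted p = 3.84e-07). Scaled by library totals the difference was 0.18 (adjusted p = 0.000308). The raw counts, 2488, 2401 and 2665 in WT and 2610, 2422 and 2557 in ossh1, overlapped. They are not scaled for the larger totals of the WT libraries.

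Other members of the CAD family moved more than OsCAD2. OsCAD6 (LOC_Os04g15920) fell from 121, 126 and 122 CPM in WT to 39.3, 36.2 and 36.8 CPM in ossh1 (log2 fold change -1.71, SE 0.05, adjusted p = 1.05e-30). This 3.28-fold fall was the largest among the lignin genes that passed, and the groups were well apart. OsCAD8C fell by 0.75 (SE 0.08, adjusted p = 2.45e-10). OsCAD3 (LOC_Os10g29470) rose from 5.46 ± 0.451 to 11.5 ± 0.231 CPM (1.08, SE 0.11, adjusted p = 4.09e-11). The 4 other tested CAD genes did not pass. The CAD8 genes lie beside each other, and the sources used here do not say how reads shared between such copies were assigned.

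Upstream of the reductases, 5 of 10 tested genes were lower and 1 was higher. 4CL3 (LOC_Os02g08100), a 4-coumarate:CoA ligase known as the main one of rice lignin, had 965, 986 and 973 CPM in WT and 696, 680 and 654 CPM in ossh1 (log2 fold change -0.53, SE 0.03, adjusted p = 1.42e-20). It was the list member with the most counts, and its groups did not overlap. The methyltransferase gene COMT1 fell from 217 ± 2.99 to 166 ± 6.12 CPM (-0.38, SE 0.03, adjusted p = 6.46e-13), and a CCoAOMT gene (LOC_Os08g38910, ROMT-15 in RefSeq) fell by 0.42 (SE 0.06). The hydroxycinnamoyl transferase gene OsHCT1 fell by 0.22 (SE 0.03) and 4CL4 by 0.16 (SE 0.04). 4CL2 was higher, at no more than 40 counts in a library (log2 fold change 0.81, SE 0.31, adjusted p = 0.0256), a call lost without WT replicate 1 or 2 or ossh1 replicate 2 (0.69 to 0.77, adjusted p 0.0616 to 0.1). An HCT gene (LOC_Os02g39850, -0.08, adjusted p = 0.22) and a CCoAOMT gene with at most 20 counts in a library (LOC_Os08g38920, -1.01, adjusted p = 0.0694) did not pass. Both were past the threshold without ossh1 replicate 1 (-0.18, adjusted p = 0.00975, and -1.57, adjusted p = 0.0277) and when scaled by library totals. Of the 3 tested laccases, the one with the most counts (LOC_Os03g16610, LAC10 in RefSeq) fell from 142 ± 4.33 to 95.1 ± 4.89 CPM (-0.58, SE 0.04, adjusted p = 2.45e-16). LAC7 (LOC_Os01g63180) had 7, 2 and 3 counts in WT and 23, 14 and 14 in ossh1 (2.32, SE 0.55, adjusted p = 0.00036), the one case of a laccase that rose, at very low counts.

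**Figure D2:**
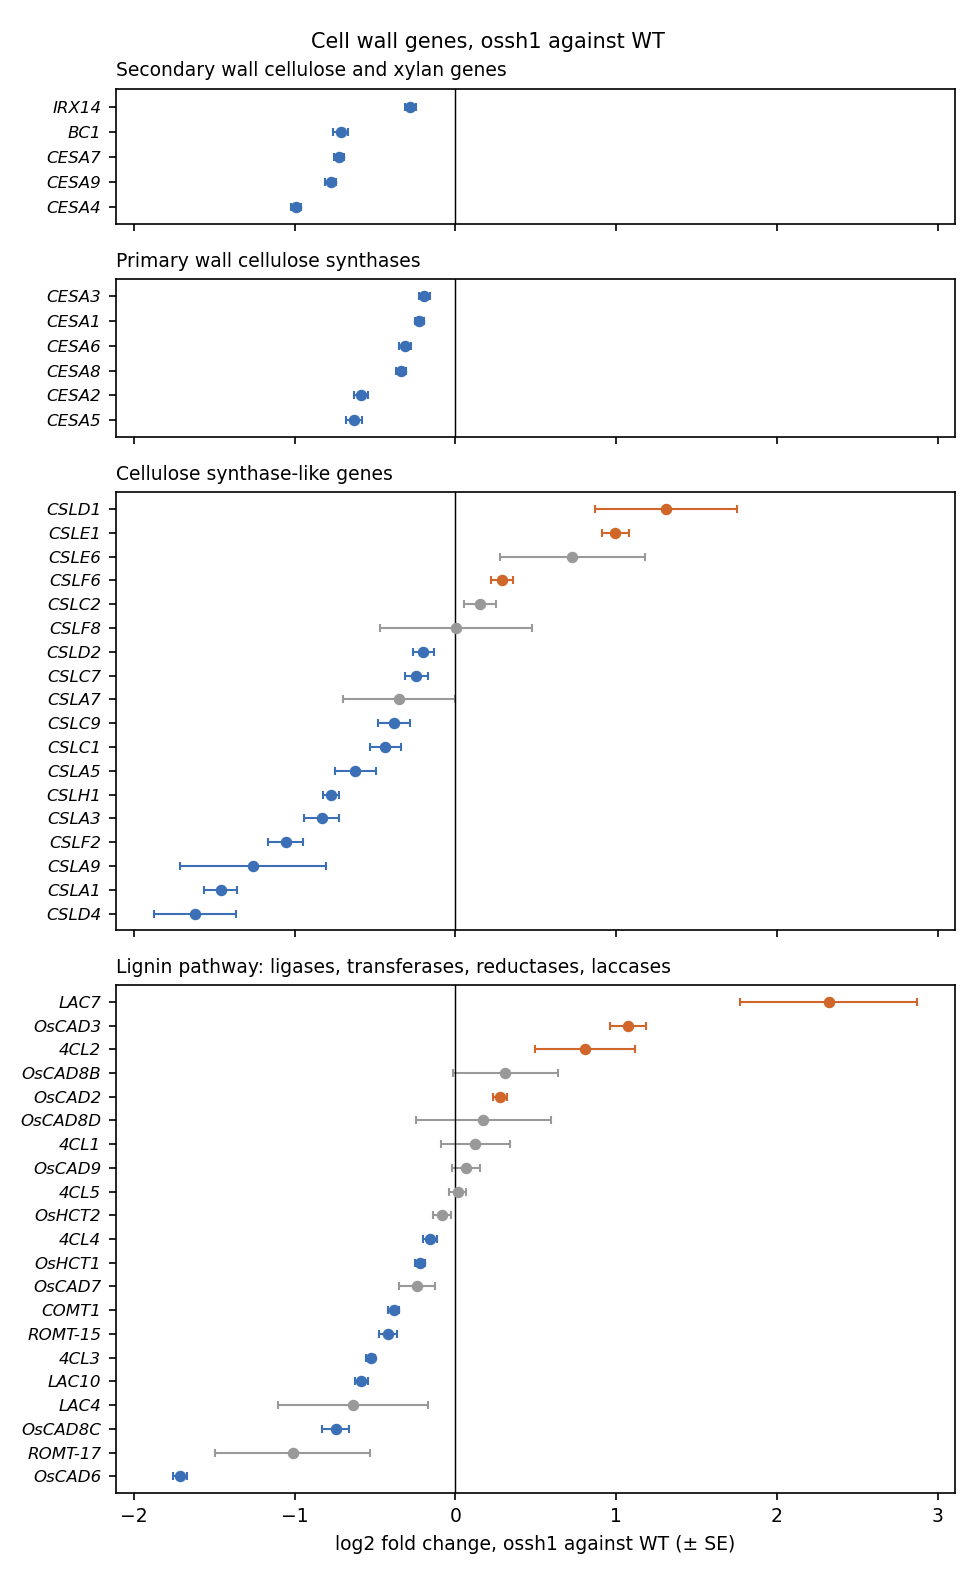
Log2 fold change of each tested cell wall gene, ossh1 against WT, with its SE from the edgeR fit over 3 libraries a group. Blue points were lower and orange points higher at an adjusted p of 0.05, and grey points did not pass. All 11 genes of the upper panels lie below 0, while the lignin genes run from OsCAD6 at -1.71 to LAC7 at 2.32.

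Expansins, which loosen primary walls, moved in both directions. Of 11 tested, 4 were higher, 1 was lower and 6 did not pass, with a median of 0.45. Thus 45.5% passed the test, fewer than the 58.3% of all tested genes, of which 29.2% were higher and 29.1% lower. EXPA7 (LOC_Os03g60720) fell from 3.17 ± 0.0734 to 1.3 ± 0.00602 CPM (log2 fold change -1.28, SE 0.21, adjusted p = 1.67e-06). EXPB3 (LOC_Os10g40720) rose from 4.65 ± 0.465 to 9.65 ± 0.858 CPM (1.05, SE 0.12, adjusted p = 1.23e-09), and EXPA2, with the most counts, rose by 0.97 (SE 0.12, adjusted p = 1.37e-09). Only 2 of these rises were in genes with a mean of at least 1 CPM.

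Markers of other tissue that a dissected zone can hold moved in the same comparison. The 4 chlorophyll a/b-binding protein genes paired were all lower, by 0.29 to 0.77 on the log2 scale, while RCA, which encodes Rubisco activase, rose by 0.79 (SE 0.03, adjusted p = 4.4e-23). The summed CPM of these 5 green tissue genes ran from 2075 to 2126 in WT and from 1583 to 1716 in ossh1. Of 9 anther and pollen genes 4 were tested and 2 were lower. UDT1, a tapetum regulator, had a log2 fold change of -0.94 and CYP703A3 one of -0.40, the defining genes OsC6 and RTS had 0 counts in every library, and the sums were 18.2 to 19.2 CPM in WT and 13.3 to 14.6 CPM in ossh1. In bulk RNA, fewer cells of a type and less RNA per cell cannot be told apart, and the part of these tissues in the falls of wall genes was not tested.

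Many auxin genes rose, 13 of 31 tested by at least 2-fold. In all, 21 of the 31 were higher, 6 were lower and 4 did not pass, with a median of 0.65 and a range from -0.69 to 2.76. The Aux/IAA genes encode short-lived repressors whose transcription auxin itself induces, and 14 of 22 tested were higher and 4 lower. OsIAA20 (LOC_Os06g07040) had 113, 117 and 119 CPM in WT and 819, 814 and 724 CPM in ossh1. The mutant level was 6.75-fold that of WT in a gene with at least 3610 counts in every library (log2 fold change 2.76, SE 0.04, adjusted p = 2.49e-41). OsIAA6, OsIAA1, OsIAA14, OsIAA24, OsIAA7 and OsIAA9 rose by 1.02 to 1.63. OsIAA13, with 17634 to 20354 counts a library, rose by 0.40 (SE 0.03, adjusted p = 1.97e-16). The falls of Aux/IAA genes were small, at most 0.16 on the log2 scale except for OsIAA23 at -0.57 (SE 0.24, adjusted p = 0.0397). That call was lost in DESeq2 (adjusted p = 0.0748) and limma-voom (adjusted p = 0.0509) and without WT replicate 1 or 3 or ossh1 replicate 1 or 3 (-0.56 to -0.46, adjusted p 0.0746 to 0.141).

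GH3 enzymes conjugate auxin to amino acids and are likewise induced by it. GH3-8 (LOC_Os07g40290) had 7.12, 8.35 and 7.25 CPM in WT and 47.3, 45.1 and 45.3 CPM in ossh1, a 6.06-fold rise with the groups far apart (log2 fold change 2.60, SE 0.08, adjusted p = 2.09e-29). GH3-2 rose by 1.26 (SE 0.06) and GH3-1 fell by 0.51 (SE 0.11). PIN proteins carry auxin, the PIN5 group, as known from Arabidopsis, into the endoplasmic reticulum. PIN5b (LOC_Os08g41720) rose from 15.3 ± 0.705 to 58.8 ± 2.52 CPM (1.94, SE 0.06, adjusted p = 6.18e-28). PIN5a rose by 1.41 (SE 0.08). Of the 5 PIN genes tested, 4 were higher and 1 was lower. The lower one, not named here, had the lowest value of the auxin list, -0.69. The tryptophan aminotransferase gene FIB, which acts in auxin synthesis, rose by 0.48 (SE 0.05).

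The auxin response factors, which Aux/IAA proteins repress, were split evenly, with 9 higher, 9 lower and 5 not past of 23 tested and a median of -0.09. ARF15 (LOC_Os05g48870, OsETTIN1 in RefSeq) rose from 18.9 ± 1.44 to 42.5 ± 2.18 CPM (log2 fold change 1.17, SE 0.07, adjusted p = 3.22e-19). ARF5 followed with a rise of 0.83 (SE 0.04), and ARF10 had the lowest value, -0.57 (SE 0.07, adjusted p = 1.01e-09). ARF4, with the most counts, was at 0.17 (SE 0.04), a call lost when scaled by library totals, under which 7 factors were higher and 12 lower.

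**Figure D3:**
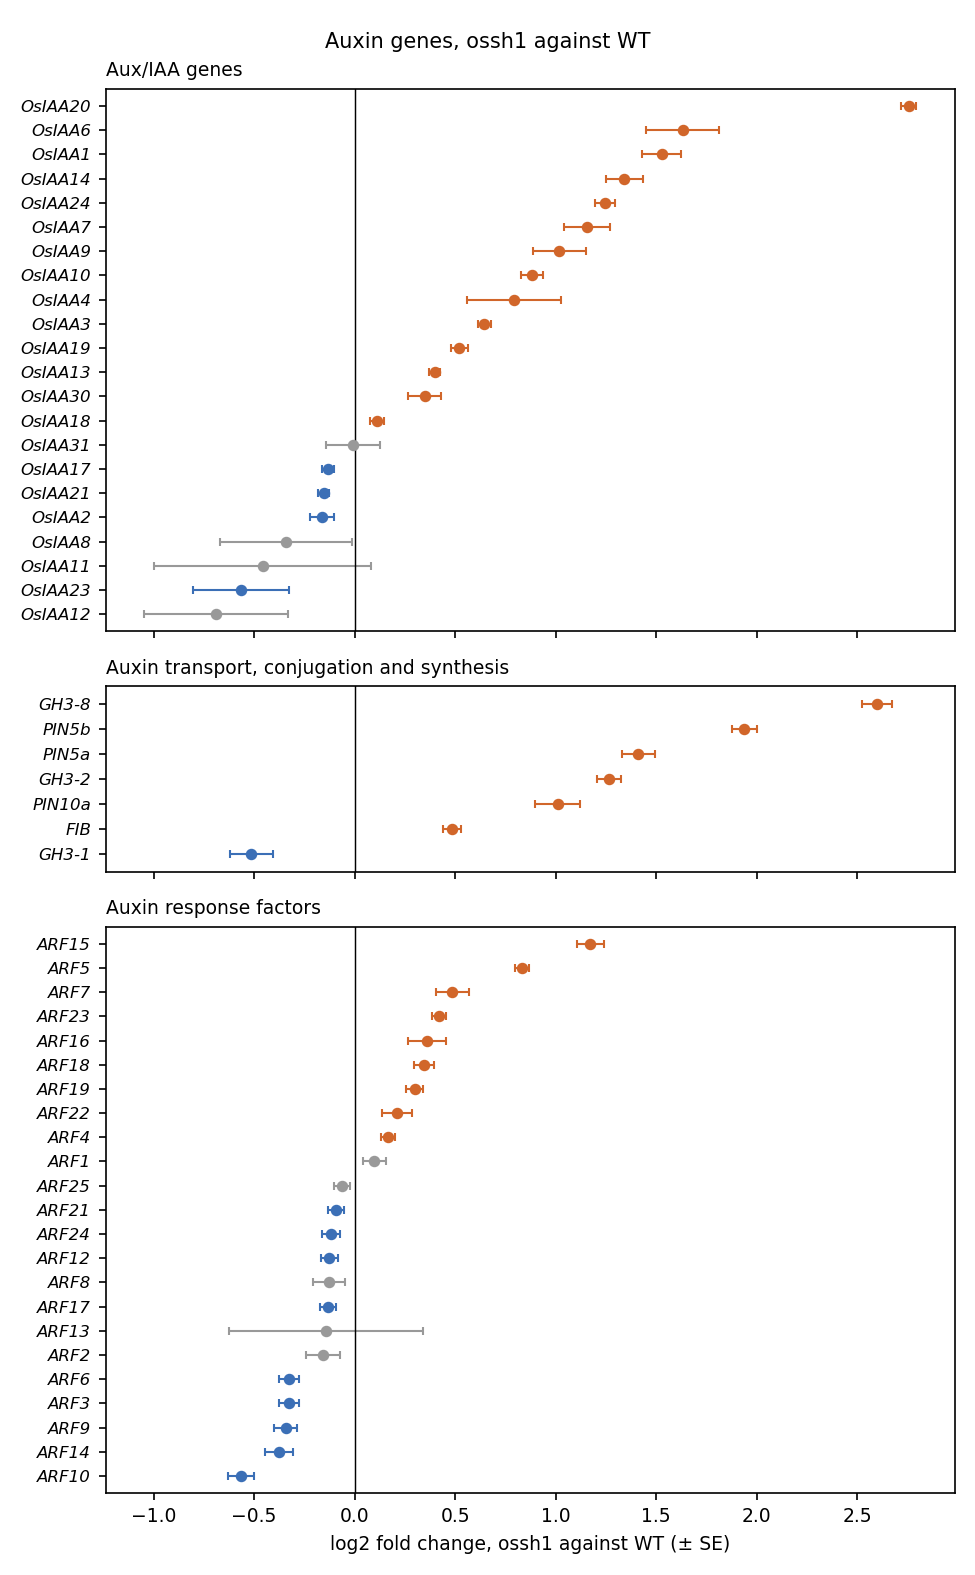
Log2 fold change of tested auxin genes described here, ossh1 against WT, with its SE from the edgeR fit over 3 libraries a group, coloured as higher (orange), lower (blue) or not past an adjusted p of 0.05 (grey). The Aux/IAA and GH3 genes lie mostly above 0, led by OsIAA20 at 2.76 and GH3-8 at 2.60, and the response factors lie on both sides.

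Abscisic acid genes held the steepest rise of any paired gene. NCED3 (LOC_Os03g44380) encodes the dioxygenase that makes xanthoxin, the step that limits abscisic acid synthesis. It had 34, 24 and 34 counts in WT and 810, 755 and 889 in ossh1, or 0.952 ± 0.163 and 30.6 ± 1.503 CPM. The rise was 32-fold with no overlap (log2 fold change 5.001, SE 0.12, adjusted p = 5.5e-32). NCED3 is one of the 40 neighbours of OsSh1 by serial number read above. The hydroxylases that break abscisic acid down moved in both directions. ABA8ox1 (LOC_Os02g47470), the list member with the most counts, had 325, 312 and 314 CPM in WT and 151, 150 and 153 CPM in ossh1 (-1.06, SE 0.03, adjusted p = 1.78e-28). ABA8ox2 (LOC_Os08g36860) rose from 8.10 ± 0.742 to 19.6 ± 0.346 CPM (1.27, SE 0.09, adjusted p = 8.39e-16) and ABA8ox3 rose by 0.49 (SE 0.07). ZEP, which encodes the epoxidase upstream of NCED3, rose by 0.26 (SE 0.04).

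Of 10 tested ethylene genes, 6 were higher and 2 lower, and the largest changes were in synthesis genes with few counts. ACO1 (LOC_Os09g27820), an ACC oxidase, had 14, 18 and 18 counts in WT and 68, 58 and 70 in ossh1 (log2 fold change 2.23, SE 0.28, adjusted p = 7.47e-09). ACS5 (LOC_Os01g09700), an ACC synthase, rose by 1.75 (SE 0.32, adjusted p = 1.05e-05), while ACS1 (LOC_Os03g51740) fell by 1.56 (SE 0.32, adjusted p = 4.81e-05). None of these 3 genes exceeded 74 counts in a library, and their groups did not overlap. Of the 4 receptor genes tested, 3 were higher and ETR2 was lower, all by less than 0.5 on the log2 scale. ERS1, with the most counts of the list, was at 0.15 (SE 0.04, adjusted p = 0.00063) and lost its call when scaled by library totals.

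All 19 jasmonate genes tested passed the test, 9 higher and 10 lower, with a median of -0.14. AOS2 (LOC_Os03g12500), an allene oxide synthase at the entry to jasmonate synthesis, had 9.93, 9.94 and 7.71 CPM in WT and 32.3, 31.0 and 30.9 CPM in ossh1. It was the one jasmonate gene that rose at least 2-fold (log2 fold change 1.77, SE 0.08, adjusted p = 8.75e-22). Its paralog AOS1 fell by 0.48 (SE 0.05), the cyclase gene AOC by 0.49 (SE 0.03), and JAR1, whose enzyme makes the active jasmonoyl-isoleucine, by 0.66 (SE 0.06). The JAZ genes encode repressors that jasmonate induces, and 6 of 10 were lower and 4 higher. JAZ8 fell by 0.77 (SE 0.03, adjusted p = 6.79e-23) and JAZ6 by 0.69 (SE 0.03), whereas JAZ3 rose by 0.56 (SE 0.04). JAZ7, with the most counts, fell by 0.14 (SE 0.03, adjusted p = 3.05e-06).

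The largest changes among genes of the remaining hormones were smaller than the largest for each hormone above. The cytokinin oxidases CKX2 and CKX11, which break cytokinin down, rose by 1.10 each (SE 0.15 and 0.07), and 3 of 6 tested CKX genes were higher. Of 13 tested cytokinin genes in all, 5 were higher, 2 lower and 6 not past. RR9, the response regulator with the most counts, did not pass (-0.03, adjusted p = 0.665), except when scaled by library totals, under which 5 cytokinin genes were lower. In the gibberellin list 4 of 9 were higher and 1 was lower, a count of rises that fell to 1 without WT replicate 2 and to 2 without WT replicate 3, ossh1 replicate 1 or ossh1 replicate 3. Without ossh1 replicate 3, or scaled by library totals, 2 were lower. The receptor gene GID1 rose by 0.58 (SE 0.08) and the semi-dwarf gene GA20ox2 fell by 0.44 (SE 0.08). GID2 (LOC_Os02g36974), with the most counts, was at 0.10 (SE 0.03), a call lost without WT replicate 2 (0.08, adjusted p = 0.0794). The name GID2 belongs to 2 RefSeq genes on chromosome 2, and the one paired here is also named GF14E. The locus may therefore not be the gibberellin signalling gene. Among brassinosteroid genes, D11 (LOC_Os04g39430), a cytochrome P450 of brassinosteroid synthesis, fell from 12.4 ± 0.903 to 6.20 ± 0.784 CPM (-1.005, SE 0.11, adjusted p = 2.32e-10). BRD1, a later enzyme and the list member with the most counts, rose by 0.34 (SE 0.04), and the receptor gene BRI1 fell by 0.46 (SE 0.05).

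The MADS-box genes of type II, which specify floral organs and flowering time, were mostly higher, 19 of 23 tested against 3 lower and 1 not past, with a median of 0.52. MADS13 (LOC_Os12g10540), known for ovule identity, had 82.2, 76.7 and 77.4 CPM in WT and 186, 188 and 181 CPM in ossh1 (log2 fold change 1.23, SE 0.04, adjusted p = 2.65e-28). Its 3 mutant libraries were all more than 2-fold above each WT library. MADS3 (LOC_Os01g10504) and MADS58 (LOC_Os05g11414), the class C genes of stamen and carpel identity, rose from 2.73 ± 0.660 to 7.83 ± 0.699 CPM (1.52, SE 0.15, adjusted p = 2.75e-11) and from 5.23 ± 0.382 to 13.6 ± 0.483 CPM (1.38, SE 0.11, adjusted p = 1.21e-14).

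MADS47 (LOC_Os03g08754), of the SVP-like group, rose by 1.70 (SE 0.11, adjusted p = 1.04e-16). MADS14, an AP1-like gene and the list member with the most counts, rose from 591 ± 8.49 to 789 ± 20.2 CPM (0.42, SE 0.03, adjusted p = 4.38e-17). MADS34 and the SEPALLATA-like MADS5, MADS7 and MADS8 rose by 0.39 to 0.64, whereas MADS1, the SEPALLATA-like gene of lemma and palea, fell from 670 ± 18.5 to 552 ± 42.9 CPM (-0.28, SE 0.03, adjusted p = 3.2e-09). Under scaling by library totals 18 MADS-box genes were higher and 3 lower. The anther and pollen genes read above do not cover ovule or carpel tissue, so their sums do not bear on these rises. The part of other floral tissue in them was not tested.

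Of the SPL genes, squamosa promoter-binding factors of panicle branching and grain shape, 4 of 9 tested were lower and 1 was higher. SPL12 (LOC_Os06g49010) had 84.5, 81.3 and 84.5 CPM in WT and 29.9, 26.4 and 27.5 CPM in ossh1, a fall of 2.99-fold with no overlap (log2 fold change -1.58, SE 0.05, adjusted p = 2.93e-27). SPL16 (LOC_Os08g41940), known for grain width, fell from 1.96 ± 0.494 to 0.784 ± 0.132 CPM (-1.31, SE 0.28, adjusted p = 0.000126). SPL14, the gene of ideal plant architecture, did not pass (0.11, adjusted p = 0.259), nor did SPL6, with the most counts (0.01, adjusted p = 0.908).

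**Figure D4:**
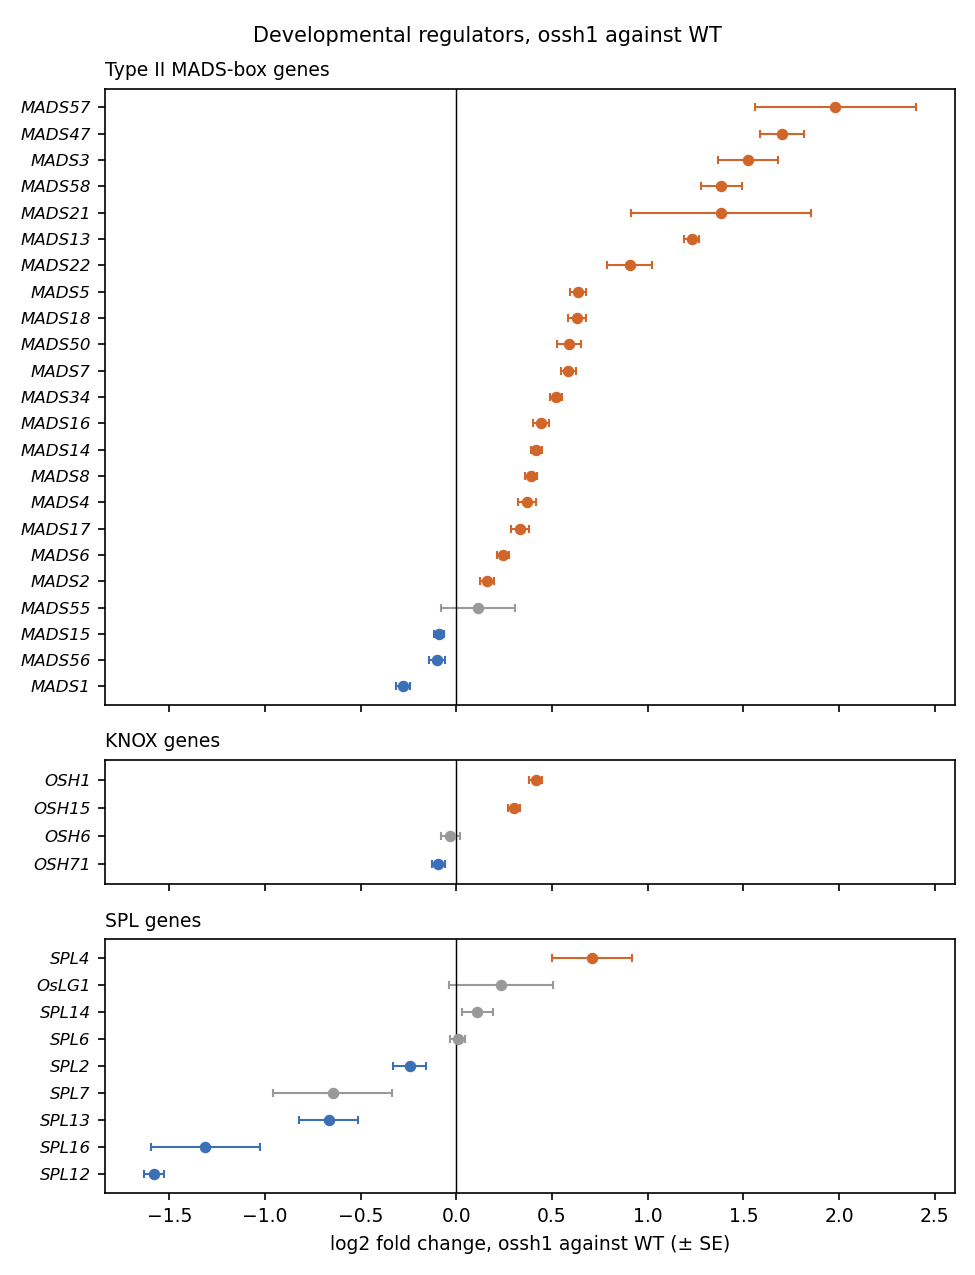
Log2 fold change of each tested MADS-box, KNOX and SPL gene, ossh1 against WT, with its SE from the edgeR fit over 3 libraries a group, coloured as higher (orange), lower (blue) or not past an adjusted p of 0.05 (grey). Most MADS-box genes lie above 0 while SPL12 and SPL16 lie below -1.

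Clock genes differed strongly between the groups. LHY (LOC_Os08g06110), a MYB factor of the plant clock whose transcript peaks near dawn, had 41.4, 43.5 and 43.2 CPM in WT and 359, 356 and 368 CPM in ossh1. The 8.45-fold rise was uniform over the pools (log2 fold change 3.08, SE 0.04, adjusted p = 6.06e-43). Genes known to peak late in the day were lower. LUX (LOC_Os01g74020, PCL1 in RefSeq), of the evening complex, fell from 4.73 ± 0.648 to 0.641 ± 0.242 CPM (-2.88, SE 0.24, adjusted p = 5.2e-14). PRR1 (LOC_Os02g40510) fell by 1.17 (SE 0.05, adjusted p = 9.83e-23), and GI (LOC_Os01g08700), with the most counts, fell from 912 ± 9.13 to 622 ± 7.21 CPM (-0.55, SE 0.03, adjusted p = 9.95e-22). PRR37 and PRR95 were higher by 0.22 and 0.20, or by 0.12 and 0.10 when scaled by library totals. PRR73 was at 0.07 (adjusted p = 0.0265), a call lost without WT replicate 1 or 3 or ossh1 replicate 1 (0.06 to 0.07, adjusted p 0.0596 to 0.151) and turned to -0.03 by library totals. ELF3-1 did not pass (0.10, adjusted p = 0.132), but did without ossh1 replicate 2 (0.15, adjusted p = 0.0416). The labels give no hour of harvest, so time of day and genotype cannot be told apart here for genes that cycle.

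Heat response genes were higher in 8 of 10 cases, with a median of 1.09. HsfA2a (LOC_Os03g53340), a heat shock factor, had 2.31, 1.08 and 1.69 CPM in WT and 7.72, 8.07 and 6.36 CPM in ossh1 (log2 fold change 2.12, SE 0.18, adjusted p = 2.4e-13). All 4 Hsf genes tested were higher. The small heat shock protein genes LOC_Os03g16030 and LOC_Os03g16020 rose by 2.04 (SE 0.19) and 1.79 (SE 0.09), and HSP101, which encodes a disaggregase, rose by 1.11 (SE 0.06). The small heat shock protein gene with the most counts, LOC_Os03g15960, rose by 0.62 (SE 0.04, adjusted p = 4.5e-19). The clock and heat genes moved in the same libraries as the wall, hormone and regulator genes above, and their part in those changes was not tested.

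**Figure D5:**
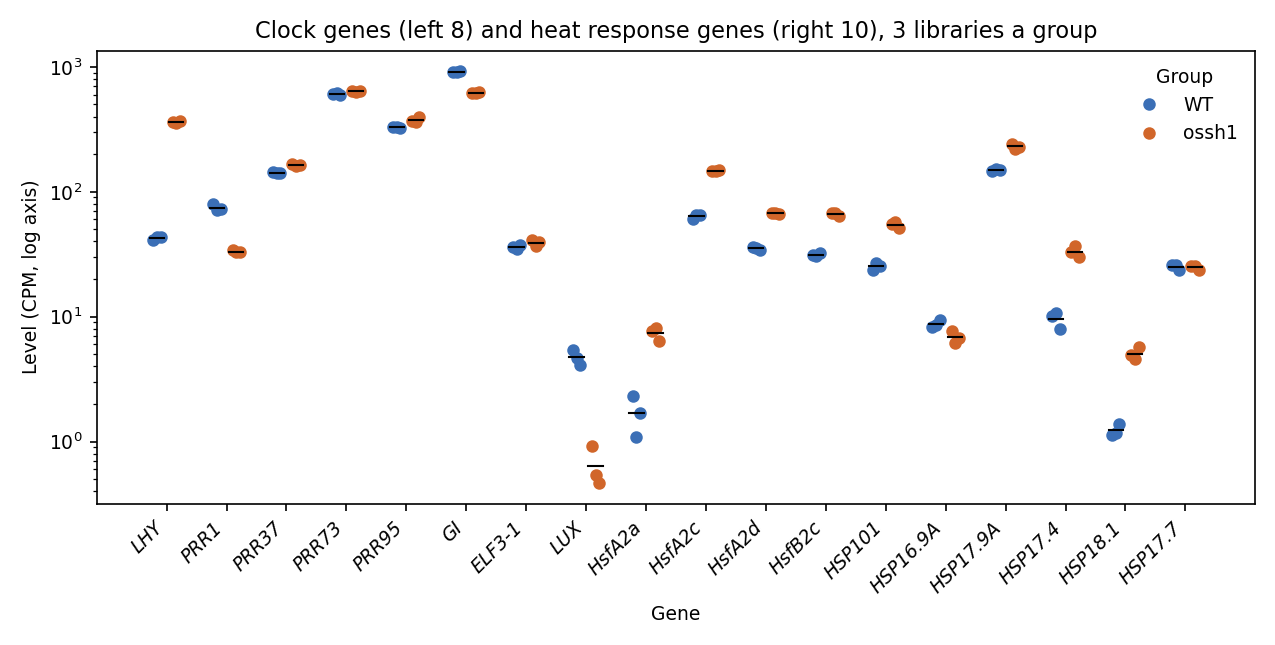
Levels of 8 clock genes and 10 heat response genes in each library (CPM, log axis), with 3 points a group, WT in blue and ossh1 in orange, and a black line at each group mean. LHY is near 43 CPM in WT and 361 CPM in ossh1, LUX is lower in every ossh1 library, and 8 of the 10 heat response genes are higher.

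Among sugar genes, 5 of 13 tested were higher and 5 lower. SUS1 (LOC_Os03g28330), a sucrose synthase, the enzyme that splits sucrose to UDP-glucose, the substrate of cellulose synthesis, had 246, 250 and 245 CPM in WT and 90.7, 91.5 and 84.7 CPM in ossh1. Its fall was 2.77-fold with no overlap (log2 fold change -1.47, SE 0.04, adjusted p = 7.52e-32). SUS3 fell by 0.85 (SE 0.04), SUS4 rose by 0.44 (SE 0.03), and SUS2, with the most counts, did not pass (-0.03, adjusted p = 0.274), but did without ossh1 replicate 3 (-0.05, adjusted p = 0.0293) and when scaled by library totals. The sucrose exporter gene SWEET11 (LOC_Os08g42350) fell from 14.4 ± 1.91 to 3.15 ± 0.374 CPM (-2.19, SE 0.13, adjusted p = 1.02e-18).

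Of 6 defence genes 3 were higher and 3 lower. The repressors WRKY76 (LOC_Os09g25060) and WRKY62 (LOC_Os09g25070), neighbours on chromosome 9, fell by 1.25 (SE 0.04, adjusted p = 1.08e-29) and 1.18 (SE 0.08, adjusted p = 4.83e-17). PBZ1, a PR10 gene with the most counts of the list, rose from 1993 ± 19.6 to 3525 ± 124 CPM (0.82, SE 0.02, adjusted p = 3.16e-29). In the flavonoid pathway, which shares its precursors with lignin, CHI fell by 0.55 (SE 0.05, adjusted p = 1.51e-13) and CHS1 rose by 0.42 (SE 0.06). Of 4 phosphate starvation genes 2 were higher and 1, SPX3, was lower (-0.26, SE 0.11, adjusted p = 0.0404). The call of SPX3 was lost without WT replicate 1, 2 or 3 or ossh1 replicate 2 or 3, in DESeq2 and with no filter. SPX1, the one with the most counts, was at 0.24 (SE 0.07) and lost its call when scaled by library totals. The reference genes EF1a, GAPDH and ACT1 were at -0.14, 0.14 and 0.20 and passed the test, GAPDH not when scaled by library totals (0.04, adjusted p = 0.326).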

How the data were processed

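Abscission zone RNA was read on a BGISEQ sequencer, per the labels. The submitters' processing notes name HISAT2, RSEM 1.3.1 and DESeq2, and IRGSP-1.0 as the build, without saying which step used each. The authors deposited whole-number read counts per gene ID, per the file headers. Use of strand in counting is not stated in the sources used here, so overlapping, antisense and near-identical genes are uncertain.

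Counts of ossh1 and WT were fitted in edgeR 4.0.16 (R 4.3.3) with filterByExpr, TMM scaling, glmQLFit and glmQLFTest, with no replicate block. Each SE was derived from this fit, as the absolute log2 fold change divided by the square root of the quasi-likelihood F. The common biological coefficient of variation was 4.32%. Between pools of a group the chi-square per degree of freedom was 2.29 to 4.46. Many low counts were even numbers, such as 16, 10 and 16 in WT and 24, 36 and 28 in ossh1 for EXPA16. Counting both mates of a read pair would give even counts and raise the chi-square without any difference between pools. How much of the spread lies beyond counting noise was not tested. The p-values measure the spread between the 3 libraries of a group, counting noise included. Alternatives were DESeq2 1.42.0, limma-voom (limma 3.58.1), RLE scaling, library totals, no filter, a filter at a mean of 1 CPM, a replicate block and each library left out. Figures used matplotlib 3.10.9.

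Gene lists were chosen with earlier results of these data known, and the 2 lists of response factors and cellulose synthase-like genes were added after the files were read. Names came from published identifications, since RefSeq (ASM3414082v1) holds no such IDs; a pair was kept where the RefSeq gene lay within 1 Mb of the place expected from the other pairs on its chromosome. That limit was set after seeing the offsets (median 16.8 kb), 27 names were picked among RefSeq genes at the expected place, so their place is no independent check, and adjacent copies of a family cannot be told apart by it. Named were the title genes, shattering regulators, in each list up to 3 members with the largest changes (adjusted p under 0.05, no overlap, at least 2-fold, mean of at least 1 CPM) and the member with the most counts. Other members are named to show the range of their list, after their values were seen. The largest changes over all genes have no name and are not described. They include falls larger than that of OsSh1 and rises in genes without a count in any WT library. Some list members are counted but not reported here.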

Additional observations from a re-analysis of the deposited data

How the results depend on the processing

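The counts over all genes, the counts of list members summed over all lists and the fall of OsSh1 stayed within 1.5 times their values under all 13 alternatives. OsSh1 ranged from -5.97 to -5.43, the genes passing in either direction from 12223 to 13621, and the list members from 107 to 121 higher and from 88 to 111 lower. Counts within single short lists moved by more, as given beside the gibberellin, cytokinin, phosphate and expansin genes. Among brassinosteroid genes 3 were higher, but 1 without WT replicate 1 or 2 or ossh1 replicate 1 or 2, in DESeq2, with no filter and by library totals. The 1 lower heat response gene was not called without WT replicate 3 or ossh1 replicate 2. Of 145 list genes read for this, 16 changed direction or side of the threshold under some alternative. Scaling by library totals alone moved the median of all genes from -0.01 to -0.11 and the share of higher genes among those called from 50.1% to 38.6%. Under it SPL6 turned from 0.01 to -0.09 and passed (adjusted p = 0.0411), PRR73 turned from 0.07 to -0.027, OSH6, RR9 (-0.13), SUS2 (-0.13), HCT LOC_Os02g39850 (-0.18, adjusted p = 0.00631) and CCoAOMT LOC_Os08g38920 (-1.11, adjusted p = 0.0448) passed, and ERS1 (0.05), GID2 (0.00), SPX1 (0.14), ARF4 (0.07) and GAPDH no longer did. It also lowered OsCAD2 to 0.18 and YAB6 to 0.17. In limma-voom that CCoAOMT gene also passed (adjusted p = 0.0467). Replicate numbers did not pair the libraries (correlations of same-numbered libraries -0.05, -0.01 and -0.05). The replicate block gave 6511 higher and 6460 lower genes and ended the calls of OsIAA23 (adjusted p = 0.0523) and PRR73 (adjusted p = 0.0633). The causes of these differences were not tested. Depth limits genes with few counts, and 35 of the paired genes were not tested.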
